A study of Rattus norvegicus with 22 samples.

Results

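Late pregnancy was compared with mid pregnancy in the liver of the mother: 4 maternal liver arrays of gestational day 20 were set against 5 of day 12, chosen by the tissue and day in the labels. These are 9 of the 22 arrays of a study in Wistar rats on EMD 82571, a calcium sensitiser (a drug that makes muscle respond more strongly to calcium), and on retinoic acid, a form of vitamin A, given in separate groups. The series text calls the drug MSC1096199. On each day there was 1 dam liver sample from vehicle control, 1 from EMD 82571 at 50 mg/kg/day (EMD50), 1 at 150 mg/kg/day (EMD150) and 1 from retinoic acid at 12 mg/kg/day, and day 12 had a second retinoic acid sample, so 4 of the 5 samples of day 12 and 3 of the 4 of day 20 came from dosed dams. Doses were given daily on days 6 to 11 and 6 to 17 according to the protocols, and on days 6 to 17 according to the series text. The titles code the first retinoic acid sample of day 12 as RA5 and the second, like that of day 20, as RA56; the codes are not explained, and both were treated here as retinoic acid. Which samples had the shorter or the longer dosing is not stated. Day 12 lies within or right after the dosing and day 20 after it, so the comparison of days within a dosed group also compares times since dosing. The sources used here do not say whether a sample is 1 dam or a pool, or at what hour it was collected. A processing batch that followed the days could not be told apart from the day. The array's controls for RNA quality moved with the day: the level at the 3' end minus that at the 5' end was 0.70 to 0.80 on day 12 and 0.59 to 0.68 on day 20 for GAPDH, and 0.56 to 0.69 and 0.47 to 0.59 for beta-actin. Their part in the differences between days was not tested. The p-values measure the spread between these 9 arrays only. Fewer cells of a type and less RNA per cell cannot be told apart in such whole-tissue samples.

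During pregnancy the liver of the mother enlarges and changes what it makes for export. Toward term the fetus draws amino acids, glucose, lipids and iron across the placenta, while the mother turns from storing fat to releasing and burning it. Placental lactogens and prolactin signal through the transcription factor STAT5. Iron uptake in the gut is set by the liver hormone hepcidin, which blocks the iron exporter ferroportin, so that less hepcidin lets more iron into the blood.

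Levels are log2 values, on which 1 unit is a 2-fold difference. Each gene was read from its probe set with the highest mean over the 9 arrays. The difference is day 20 minus day 12 within treatment, with its standard error (SE) after ±, from a limma model with the treatment as a block. A gene is said to have risen or fallen where limma's p was under 0.05 after Benjamini-Hochberg adjustment across the 15866 probe sets tested. The numbers of arrays limit the precision, and each SE rests on 4 residual degrees of freedom plus what limma borrows from other probe sets.

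The label of the tissue was checked first. Serum albumin RNA, from Alb, was at 15.14 to 15.18 on day 12 and 15.13 to 15.22 on day 20, and the mean of 14 hepatocyte markers between 13.44 and 13.52 on day 12 and between 13.58 and 13.74 on day 20. Arrays of day 12 correlated with each other at 0.991 to 0.996 over all probe sets, arrays of day 20 at 0.979 to 0.991, and arrays of different days at 0.975 to 0.985. Muscle or pancreatic genes were high on 4 arrays. The mean of 30 skeletal muscle markers was 8.89 on the day 20 retinoic acid array and 6.94 to 7.14 on the other 8, and 27 of the 30 were highest there. The mean of 16 pancreatic acinar markers was 9.97 on the day 12 control, 9.34 on the day 12 EMD50 and 8.71 on the day 20 control array, against 7.38 to 7.62 elsewhere. These 3 arrays held the 3 highest values of 15 of the 16 acinar genes. The day 12 control array was also the highest in the mean of 8 adipocyte markers (8.09 against 7.38 to 7.76 elsewhere, with Ucp1 at 8.24 against 6.54 to 7.02) and of 6 red cell markers (9.07 against 8.29 to 8.82), and no adipocyte marker was called between days (0 at an unadjusted p under 0.05). None of the 30 muscle markers was called between the days by limma (10 at an unadjusted p under 0.05), and the carboxypeptidase gene Cpa1 was the only called acinar marker. Of 6 red cell markers 1 rose (Ahsp, 0.35 ± 0.09, not called without the day 20 retinoic acid array), of 14 stellate cell and fibroblast markers 3 fell (Lrat, Col1a2 and Col3a1), of 6 bile duct markers 1 fell (Epcam, -0.53 ± 0.09), of 14 lymphocyte markers 1 rose (Klrb1a, 0.55 ± 0.08), and of 12 macrophage markers 0 changed at this threshold (1 at an unadjusted p under 0.05), with 2 higher without the day 20 retinoic acid array. Over all genes 6.31% were called, 10.7% without that array, and 2480 of 10411 had an unadjusted p under 0.05. The called shares were 16.7% of red cell, 21.4% of stellate cell and fibroblast, 16.7% of bile duct and 7.14% of lymphocyte markers. For macrophage markers the share without that array was 16.7%. Of 7 fetal liver or yolk sac markers 2 rose, 28.6%. The mean of the 7 was 8.18 to 8.27 on day 12 and 8.43 to 8.81 on day 20, without overlap. The 8.81 was that of the day 20 retinoic acid array, and the other day 20 arrays reached 8.60. Taken singly, 1 of the 7 did not overlap between days, against 1123 of 10411 genes. The part of these markers in the differences below was not tested.

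**Figure D1:**
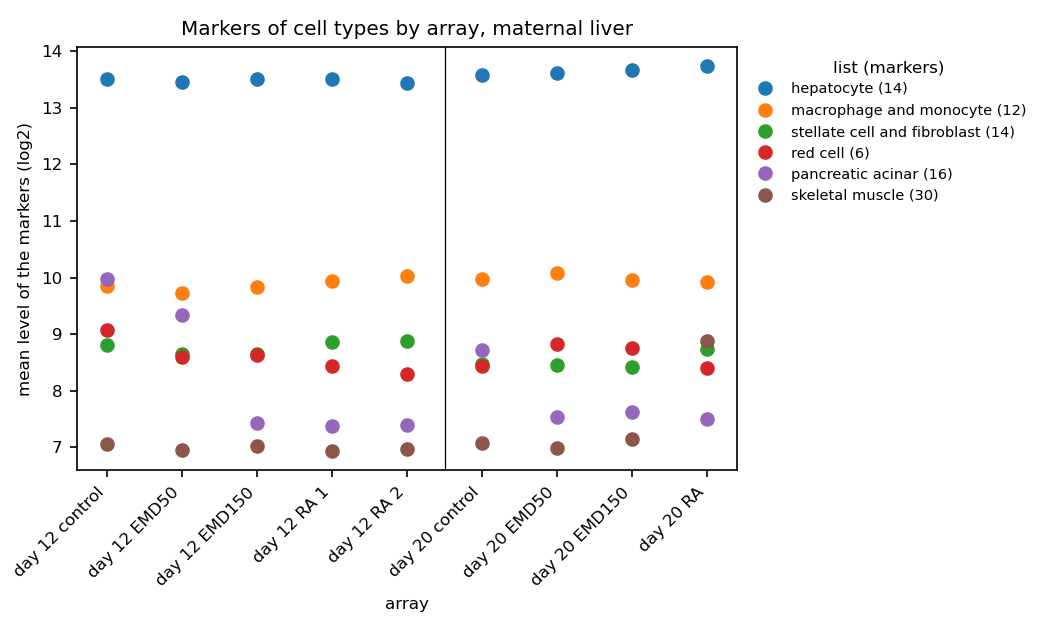
Mean log2 level of 6 lists of cell type markers (vertical axis) on each of the 9 maternal liver arrays (horizontal axis, day and treatment), with 1 point per list and array and the number of markers in the key. Muscle markers stand at 8.89 on the day 20 retinoic acid array alone, and acinar markers at 8.71 to 9.97 on 3 arrays.

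Between days 12 and 20, 284 genes rose and 373 fell in the maternal liver, out of 10411 measured. That is 2.73% higher, 3.58% lower and 6.31% in either direction, the background against which the counts of each pathway below are read. Over probe sets the calls were 390 higher and 575 lower, 965 of 15866, with 3627 at an unadjusted p under 0.05. The groups of arrays did not overlap for 503 of the 657 called genes and for 1123 of all 10411 genes. Of the 657, 655 had the same sign in all 4 treatments. A call selects for both traits, so neither is separate support for it. Most differences were modest, with a median size of 0.56 among called genes and 0.10 among all genes. The change reached 1 log2 unit in 31 genes that rose and 31 that fell, and 3 log2 units in 2 that rose, A2m and Ccn3, and 1 that fell, Hamp. The median difference of all genes was 0.02.

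**Figure D2:**
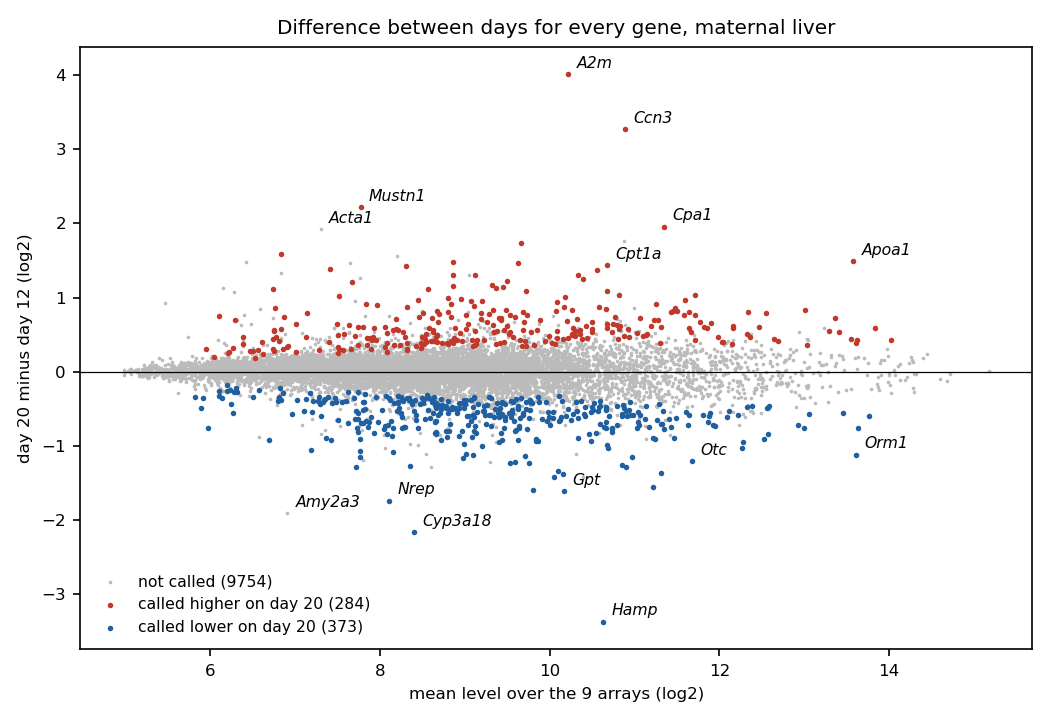
Difference between days (day 20 minus day 12, log2, vertical axis) against the mean level over the 9 arrays (log2, horizontal axis) for 10411 genes, with the 284 genes called higher in red, the 373 called lower in blue and the rest in grey. A2m at 4.01, Ccn3 at 3.28 and Hamp at -3.38 lie farthest from 0, and the muscle gene Acta1 and the acinar gene Amy2a3 lie far out without being called.

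The comparison was repeated without the day 20 retinoic acid array, which carries the muscle genes. Limma then called 1650 probe sets, 604 higher and 1046 lower. By gene the calls were 4.28% higher and 6.46% lower, 1119 or 10.7% in all, and 561 of the 657 genes called with that array remained called. Counts of this repeat given below are read against those shares. None of the 965 probe sets changed sign. The count depended more on the controls. Leaving out the control array of either day takes the control out of the comparison, and 183 or 185 probe sets were then called. The count was 427 without an EMD50 array, 381 or 385 without an EMD150 array, and 644 and 598 without the first and the second retinoic acid array of day 12; the former leaves RA56 samples alone in the retinoic acid group. Without the 3 arrays high in acinar genes, a repeat chosen after seeing the data that left 2 residual degrees of freedom, limma called 89 probe sets, 44 higher and 45 lower, and 0 to 3 genes in each pathway list. Every called gene with values in the text kept its direction in that repeat.

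Hepcidin had the largest fall, and Cish, an inhibitor of cytokine signalling, is a known target of STAT5. The 250 bases before their starts are shown because they hold matches to motifs of the pathways named above. The sequences are those of RefSeq on build GRCr8, read along the gene, from 250 bases before the start to the last base before it. Hamp lies on the minus strand, chr1:95300272-95300521, and Cish on the plus strand, chr8:116850719-116850968. Capitals mark TTCNNNGAA, the form bound by STAT factors, and GGCGCC, the form bound by SMAD factors of the bone morphogenetic protein pathway; each reads the same on both strands.
Hamp: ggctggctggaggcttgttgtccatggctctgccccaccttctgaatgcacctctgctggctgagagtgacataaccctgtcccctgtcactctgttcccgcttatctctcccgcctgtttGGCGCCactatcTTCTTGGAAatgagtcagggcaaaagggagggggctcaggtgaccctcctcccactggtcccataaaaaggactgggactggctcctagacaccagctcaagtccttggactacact
Cish: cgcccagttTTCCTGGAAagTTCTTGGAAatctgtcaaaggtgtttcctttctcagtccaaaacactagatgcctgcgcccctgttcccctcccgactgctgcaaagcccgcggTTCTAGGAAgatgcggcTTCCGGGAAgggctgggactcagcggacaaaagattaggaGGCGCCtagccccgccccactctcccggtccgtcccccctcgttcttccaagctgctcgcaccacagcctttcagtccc
In Hamp the match to GGCGCC covers bases 129 to 124 before the start and the match to TTCNNNGAA bases 117 to 109, without overlap. Cish has 4 matches to TTCNNNGAA, which begin 241, 230, 136 and 119 bases before the start, and 1 to GGCGCC at 79. Of 33469 promoters of this length in the table, 7.67% hold TTCNNNGAA, 8.69% hold GGCGCC and 127 (0.379%) hold both, and 2 hold 4 or more matches to TTCNNNGAA. The counts of 127 and 2 use what Hamp and Cish hold as the criterion, and both genes were shown for their matches. These counts therefore test nothing about the 2 genes. The E-box CACGTG was also searched and is in neither sequence, while 5.59% of all promoters hold it. Among the genes named by rule, 53 of the 60 that fell had a promoter in the table, and TTCNNNGAA, GGCGCC and CACGTG were in 3, 5 and 3 of them. Of the 45 that rose, 34 had one, and the motifs were in 3, 4 and 3 of them. A match describes letters and says nothing of binding in these livers.

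Hamp, the gene of hepcidin, fell by 3.38 ± 0.28, 10.4-fold (adjusted p = 0.001). Hamp was at 11.96 in control, 12.21 with EMD50, 11.13 with EMD150 and 12.69 and 12.78 with retinoic acid on day 12, and at 8.40, 9.22, 8.84 and 8.38 in the same order of treatments on day 20. Every day 20 array lay below every day 12 array, and the nearest pair was the EMD150 sample of day 12 and the EMD50 sample of day 20. The mean was 12.15 ± 0.67 (SD, n = 5) on day 12 and 8.71 ± 0.40 (SD, n = 4) on day 20.

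A2m encodes alpha-2-macroglobulin, a protease inhibitor of the plasma and a strong acute phase protein of the rat. It rose by 4.01 ± 0.61, 16.2-fold (adjusted p = 0.0103). A2m levels on day 12 were 7.71 in control, 7.89 with EMD50, 11.21 with EMD150 and 7.63 and 7.54 with retinoic acid, and those on day 20 were 12.73, 12.06, 12.11 and 13.07 in that order. On day 12 the EMD150 sample stood 3.33 above the next sample, and it still lay below all 4 samples of day 20. The rise was 5.02 in control, 4.17 with EMD50, 0.89 with EMD150 and 5.49 with retinoic acid. In the repeat without the 3 arrays high in acinar genes the difference was 3.52, and A2m was not called. Without the control array of either day the adjusted p was 0.0556 to 0.0559, and the gene was then not called.

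Ccn3, a secreted matricellular protein of the CCN family, rose by 3.28 ± 0.14, 9.69-fold (adjusted p = 7.76e-05). Ccn3 stood on day 12 at 9.56 in control, 9.43 with EMD50, 9.15 with EMD150 and 9.28 and 9.84 with retinoic acid, and on day 20 at 12.41, 12.91, 12.46 and 12.98 in that order. The day groups were separated by 2.57 log2 units, and treatments within a day differed little. With the day 20 retinoic acid array left out, the differences were -2.94 for Hamp, 3.36 for A2m and 3.22 for Ccn3, all called. Hamp and Ccn3 were also called in each of the 9 fits that left out 1 array.

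**Figure D3:**
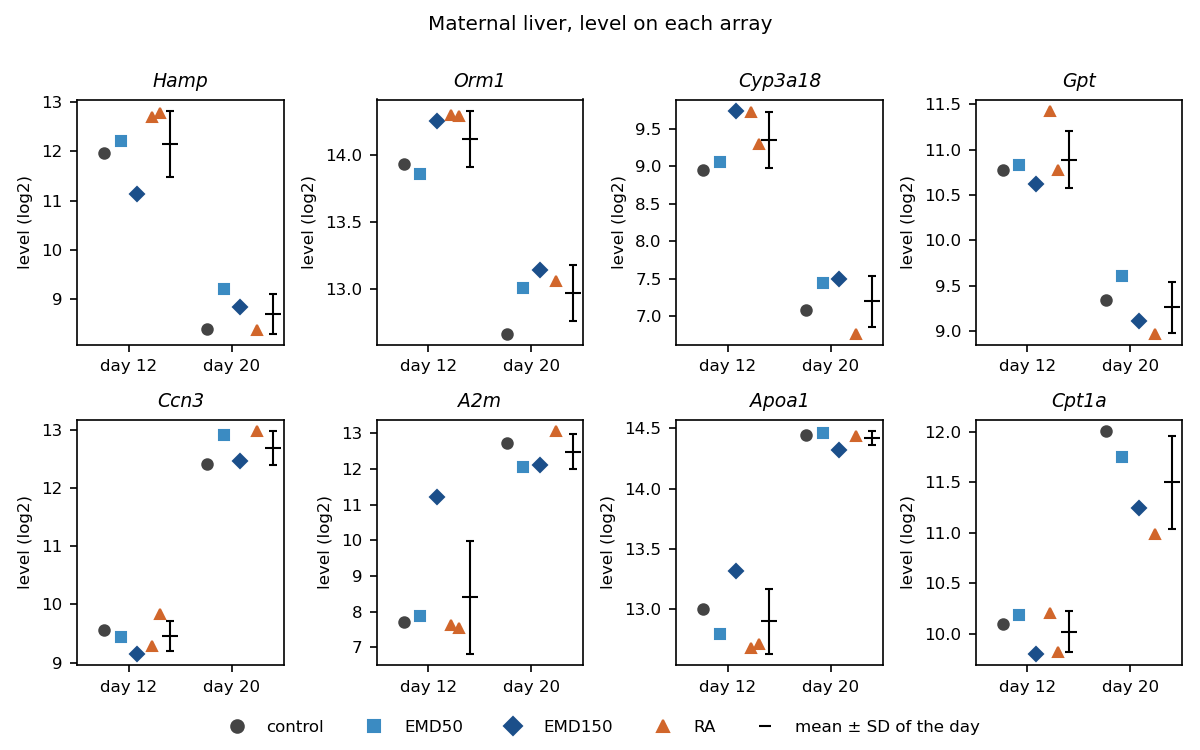
Level of 8 genes (log2, vertical axis) on each array of days 12 and 20, with the treatment given by the marker and the mean ± SD of the 5 and the 4 arrays at the side of each day. The day groups do not overlap in any of these genes, and the A2m level of the day 12 EMD150 array, 11.21, lies between the other day 12 arrays and those of day 20.

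Beyond hepcidin, the called genes of the iron list were Id1, Id2 and Steap3. Of 35 measured genes for uptake, storage, export and regulation of iron, 1 rose and 3 fell, 11.4% against 6.31% of all genes, with a median difference of -0.04 against 0.02 over all genes. Id1 and Id2 encode inhibitors of DNA binding, not proteins of iron uptake, storage or export, and the 11.4% includes both. Id1 responds to bone morphogenetic proteins as Hamp does. Id1 rose by 0.79 ± 0.18 (adjusted p = 0.0387) while Id2 fell by 1.03 ± 0.15 (0.00962). A second probe set of Id2 fell by 0.55 ± 0.12 (adjusted p 0.0382). Id1 measured 8.77 in control, 8.64 with EMD50, 8.42 with EMD150 and 9.20 and 9.22 with retinoic acid on day 12, and 9.51, 9.93, 9.63 and 9.34 in the same order on day 20. The highest day 12 samples of Id1, those with retinoic acid, came within 0.12 of the lowest of day 20. Id2 was at 11.09 in control, 11.20 with EMD50, 10.97 with EMD150 and 11.36 and 11.21 with retinoic acid on day 12, and at 9.50, 10.21, 9.85 and 10.73 in the same order of treatments on day 20. The retinoic acid sample of day 20 was the one nearest to day 12. Steap3, an iron reductase, fell by 0.32 ± 0.07 (0.0405). In the repeat without the day 20 retinoic acid array 1 gene of the list rose and 8 fell, 25.7% against 10.7% of all genes. Of the 4 genes called, Hamp and Id2 were called in each fit that left out 1 array. The call of Id1, Steap3 or both was lost without a control, EMD50 or EMD150 array or 1 of the day 12 retinoic acid arrays, at adjusted p from 0.0516 to 0.174.

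Secreted plasma proteins moved in both directions. Orm1, the gene of the acute phase protein alpha-1-acid glycoprotein, fell by 1.12 ± 0.09, 2.18-fold (adjusted p = 0.001), opposite to A2m. Orm1 levels on day 12 were 13.93 in control, 13.86 with EMD50, 14.25 with EMD150 and 14.30 and 14.29 with retinoic acid, and those on day 20 were 12.67, 13.01, 13.14 and 13.06 in that order. The day groups lay 0.72 apart. Among 31 acute phase genes 2 rose (A2m and the serpin gene Serpina3c, 0.43 ± 0.10) and Orm1 fell, with a median of 0.09. Of 20 complement genes, C9, the last component of the membrane attack complex, fell by 0.76 ± 0.12 (0.0121), while Masp2, a protease of the lectin pathway, differed by 0.48 ± 0.13 (0.0598). The complement median was -0.03, and the called share of the list, 5%, was under the 6.31% of all genes.

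Coagulation factors and serpins leaned to higher levels late in pregnancy, with 5 of 27 genes risen, 0 fallen and a median of 0.15. The 5 included the clotting factors F10 (0.44 ± 0.09) and F5 (0.43 ± 0.09). Ggcx (0.62 ± 0.10) and Vkorc1 (0.54 ± 0.09) encode enzymes of the vitamin K cycle, which modifies factors such as F10. The last was Serpina6 (0.59 ± 0.10), which carries corticosteroids in the blood. Serpina6 was at 13.81 in control, 13.63 with EMD50, 13.61 with EMD150 and 13.33 and 13.42 with retinoic acid on day 12, and at 14.18, 14.17, 14.16 and 14.19 in the same order of treatments on day 20. The day 20 samples lay within 0.03 of each other and above every day 12 sample. Ggcx is the carboxylase of the cycle. Ggcx levels on day 12 were 10.20 in control, 10.13 with EMD50, 10.13 with EMD150 and 10.01 and 10.28 with retinoic acid, and those on day 20 were 10.59, 10.91, 10.66 and 10.88 in that order. All 4 samples of day 20 were the higher ones.

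Of 32 carrier and hormone genes 3 rose and 2 fell. Rbp4, which carries retinol, rose by 0.42 ± 0.09 (0.0321), and the fetal albumin counterpart Afp by 0.72 ± 0.14 (0.0235), with day groups that overlapped (8.08 to 8.57 on day 12 and 8.50 to 9.27 on day 20). Fgf21, a hormone of fasting, is given with the oxidation genes. Inhbe, which encodes the activin E subunit, fell by 1.12 ± 0.08 (0.000959), as did Orm1. Inhbe stood on day 12 at 9.64 in control, 9.89 with EMD50, 9.18 with EMD150 and 9.61 and 9.67 with retinoic acid, and on day 20 at 8.33, 8.83, 8.24 and 8.47 in that order. No day 20 sample reached the day 12 range. Igfbp2, a binding protein of insulin-like growth factors, rose by 1.08 ± 0.17 (0.0123). It was the 1 gene called among 13 of that family, 7.69% against 6.31% of all genes. Igfbp2 measured 10.05 in control, 10.14 with EMD50, 10.11 with EMD150 and 10.50 and 10.14 with retinoic acid on day 12, and 11.87, 11.13, 11.08 and 11.02 in the same order on day 20. The control sample was the highest of day 20. Igfals, the acid-labile subunit that stabilises the circulating growth factor, differed by -0.48 ± 0.15 (0.0937). In the list of 26 CCN and matrix genes Ccn3 rose, and the fibrillar collagen genes Col3a1 (-0.53 ± 0.10) and Col1a2 (-0.43 ± 0.09) fell.

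Without the day 20 retinoic acid array the counts of genes that rose and fell were 4 and 2 for acute phase genes, 2 and 1 for complement, 5 and 0 for coagulation, 3 and 3 for carriers, 1 and 0 for growth factors and their binding proteins, and 1 and 2 for matrix genes. In the same order these were 19.4%, 15%, 18.5%, 18.8%, 7.69% and 11.5% of the lists, against 10.7% of all genes. Of the 17 secreted protein genes called above, Orm1, C9, Ggcx, Serpina6, Inhbe, Igfbp2 and Ccn3 were called in each fit that left out 1 array. The other 10 lost the call without a control array, 7 without an EMD50 array, 7 without an EMD150 array and 5 without either day 12 retinoic acid array, at adjusted p from 0.0508 to 0.157. All 17 were called without the day 20 retinoic acid array.

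Fat burning genes were the pathway with the most genes that rose. Of 36 genes of fatty acid oxidation, ketone bodies and other targets of the receptor PPAR-alpha, 9 rose and 1 fell, and the median was 0.27 against 0.02 over all genes. Cpt1a, the gate of fatty acid entry into mitochondria, rose by 1.44 ± 0.15, 2.71-fold (adjusted p = 0.00335). Cpt1a was at 10.10 in control, 10.18 with EMD50, 9.80 with EMD150 and 10.20 and 9.82 with retinoic acid on day 12, and at 12.01, 11.75, 11.25 and 10.99 in the same order of treatments on day 20. On day 20 the level was highest in control and lowest with retinoic acid, and all 4 samples lay above day 12. A second probe set of Cpt1a gave 1.61 ± 0.16 (0.00295). Fgf21 rose by 1.42 ± 0.25 (0.0181). Fgf21 levels on day 12 were 7.57 in control, 7.42 with EMD50, 7.98 with EMD150 and 7.89 and 7.70 with retinoic acid, and those on day 20 were 8.91, 9.16, 8.20 and 9.93 in that order. Its retinoic acid sample was the highest of day 20 and the EMD150 sample lay 0.22 above the highest of day 12.

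Other genes of oxidation followed. Acaa2, the last enzyme of the mitochondrial cycle, rose by 0.81 ± 0.11 (0.007), and Vnn1, a pantetheinase and target of PPAR-alpha, by 0.76 ± 0.11 (0.0086). Abcd3, a transporter of the peroxisome membrane, rose by 0.95 ± 0.21 (0.0372). Abcd3 was at 8.69 in control, 8.85 with EMD50, 8.73 with EMD150 and 8.69 and 8.77 with retinoic acid on day 12, and at 10, 10.26, 10.04 and 8.80 in the same order of treatments on day 20. The rise was seen in control and at both EMD 82571 doses, and the retinoic acid sample of day 20 stayed within the day 12 range. Eci2, an isomerase for unsaturated fatty acids, fell by 0.50 ± 0.10 (0.0276). Leaving out the day 20 retinoic acid array, 13 genes of the list rose and 2 fell, 41.7% against 10.7% of all genes. Of the 6 genes named, Cpt1a, Acaa2 and Vnn1 were called in each fit that left out 1 array, and the call of the other 3 was lost without a control array, of 2 without an EMD50 or an EMD150 array and of 1 without the first day 12 retinoic acid array, at adjusted p from 0.0596 to 0.158.

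Lipid synthesis moved the other way in 5 of 24 genes, and 1 rose. Me1, the malic enzyme that supplies reducing power for fatty acid synthesis, fell by 1.24 ± 0.14, 2.36-fold (0.0034). Me1 levels on day 12 were 10.17 in control, 10.33 with EMD50, 10.20 with EMD150 and 10.56 and 10.31 with retinoic acid, and those on day 20 were 8.57, 9.07, 9.51 and 9.08 in that order. The highest sample of day 20, with EMD150, lay 0.66 below the lowest of day 12. Agpat2, an acyltransferase of triglyceride synthesis, fell by 1.15 ± 0.17 (0.00962). Agpat2 stood on day 12 at 10.36 in control, 10.07 with EMD50, 10.30 with EMD150 and 10.16 and 10.10 with retinoic acid, and on day 20 at 9.22, 9.70, 8.94 and 8.56 in that order. Its lowest level was that of the day 20 retinoic acid sample. The transcription factor genes Mlxipl (-0.73 ± 0.14) and Srebf1 (-0.55 ± 0.10), which switch on synthesis in response to sugar and insulin, fell too, as did the acyltransferase gene Gpam (-0.41 ± 0.08). Pnpla3, a lipase-like protein of lipid droplets and known target of both factors, rose by 1.39 ± 0.23 (0.0145). Pnpla3 measured 6.87 in control, 6.80 with EMD50, 6.42 with EMD150 and 6.98 and 7.12 with retinoic acid on day 12, and 7.10, 8.23, 8.34 and 8.87 in the same order on day 20. The control sample of day 20 was within the day 12 range and the other 3 were above it.

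Second probe sets gave -1.07 ± 0.12 for Me1 and -0.75 ± 0.13 for Srebf1, both called. The median of the synthesis list was -0.07. In cholesterol synthesis and uptake 1 of 21 genes rose and 1 fell, with a median of 0.15: Scarb1, the receptor of high density lipoprotein (0.44 ± 0.10), and Dhcr7, the last step of cholesterol synthesis (-0.59 ± 0.12). Without the day 20 retinoic acid array the counts were 2 and 6 for lipid synthesis and 0 and 3 for cholesterol, and Scarb1 was no longer called (adjusted p 0.087). The shares were 33.3% and 14.3% of the lists, against 10.7% of all genes. A second probe set of Scarb1 gave 0.36 ± 0.14 (adjusted p 0.177). Of the 8 genes named for these lists, Me1 was called in each fit that left out 1 array. The calls of 6 were lost without a control or an EMD150 array, of 5 without an EMD50 array, and of 2 and 3 without the first and second day 12 retinoic acid array, at adjusted p from 0.05 to 0.146.

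Apoa1, the main protein of high density lipoprotein, rose by 1.49 ± 0.13, 2.81-fold (adjusted p = 0.001). Apoa1 was at 13 in control, 12.79 with EMD50, 13.32 with EMD150 and 12.68 and 12.71 with retinoic acid on day 12, and at 14.45, 14.46, 14.32 and 14.44 in the same order of treatments on day 20. The day 20 samples lay within 0.14 of each other and 1.0 above the highest of day 12. Apom, a carrier of sphingosine phosphate on the same particles, rose by 0.79 ± 0.09 (0.00401), and Apoc1 by 0.38 ± 0.09 (0.0392). Hepatic lipase, Lipc, which trims lipids from lipoproteins, fell by 0.90 ± 0.12 (0.0069). Lipc levels on day 12 were 12.06 in control, 11.84 with EMD50, 11.63 with EMD150 and 12 and 11.78 with retinoic acid, and those on day 20 were 10.74, 11.21, 10.91 and 10.99 in that order. Every day 20 sample was lower. These were the 4 called of 21 lipoprotein genes, whose median was 0.10.

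Bile acid genes were mostly lower, 20 of 26 below 0 (4656 of 10411 over all genes) with a median of -0.31, although only 3 fell by the test and 1 rose. Among enzymes of bile acid synthesis, Hsd3b7 fell by 0.84 ± 0.15 (0.0188) and Acox2 fell by 0.57 ± 0.10 (0.0169). Abcb11, the pump that exports bile salts into bile, fell by 0.81 ± 0.19 (0.043). Abcb11 was at 11.10 in control, 11.31 with EMD50, 11.08 with EMD150 and 11.09 and 10.98 with retinoic acid on day 12, and at 9.96, 9.76, 10.62 and 10.75 in the same order of treatments on day 20. The fall was larger in control and EMD50 than in the other samples. Nr0b2, the small heterodimer partner that represses bile acid synthesis, rose by 1.31 ± 0.29, 2.48-fold (0.0354). Nr0b2 levels on day 12 were 7.79 in control, 7.79 with EMD50, 8.68 with EMD150 and 9.09 and 8.07 with retinoic acid, and those on day 20 were 9.41, 10.06, 9.81 and 9.07 in that order. The groups overlapped slightly, at the first retinoic acid sample of day 12 and that of day 20. Without the latter array 4 lipoprotein genes rose and 4 fell, and 1 bile acid gene rose and 9 fell. The shares were 38.1% and 38.5% of the lists, against 10.7% of all genes. Of the 8 genes named for these lists, Apoa1, Apom and Lipc were called in each fit that left out 1 array. The other 5 lost the call without a control or an EMD50 array, 3 without an EMD150 array, and 2 and 3 without the first and second day 12 retinoic acid array, at adjusted p from 0.0508 to 0.176. With the spread taken from all 22 arrays, limma called neither Apoa1 (adjusted p 0.0868) nor Apom.

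**Figure D4:**
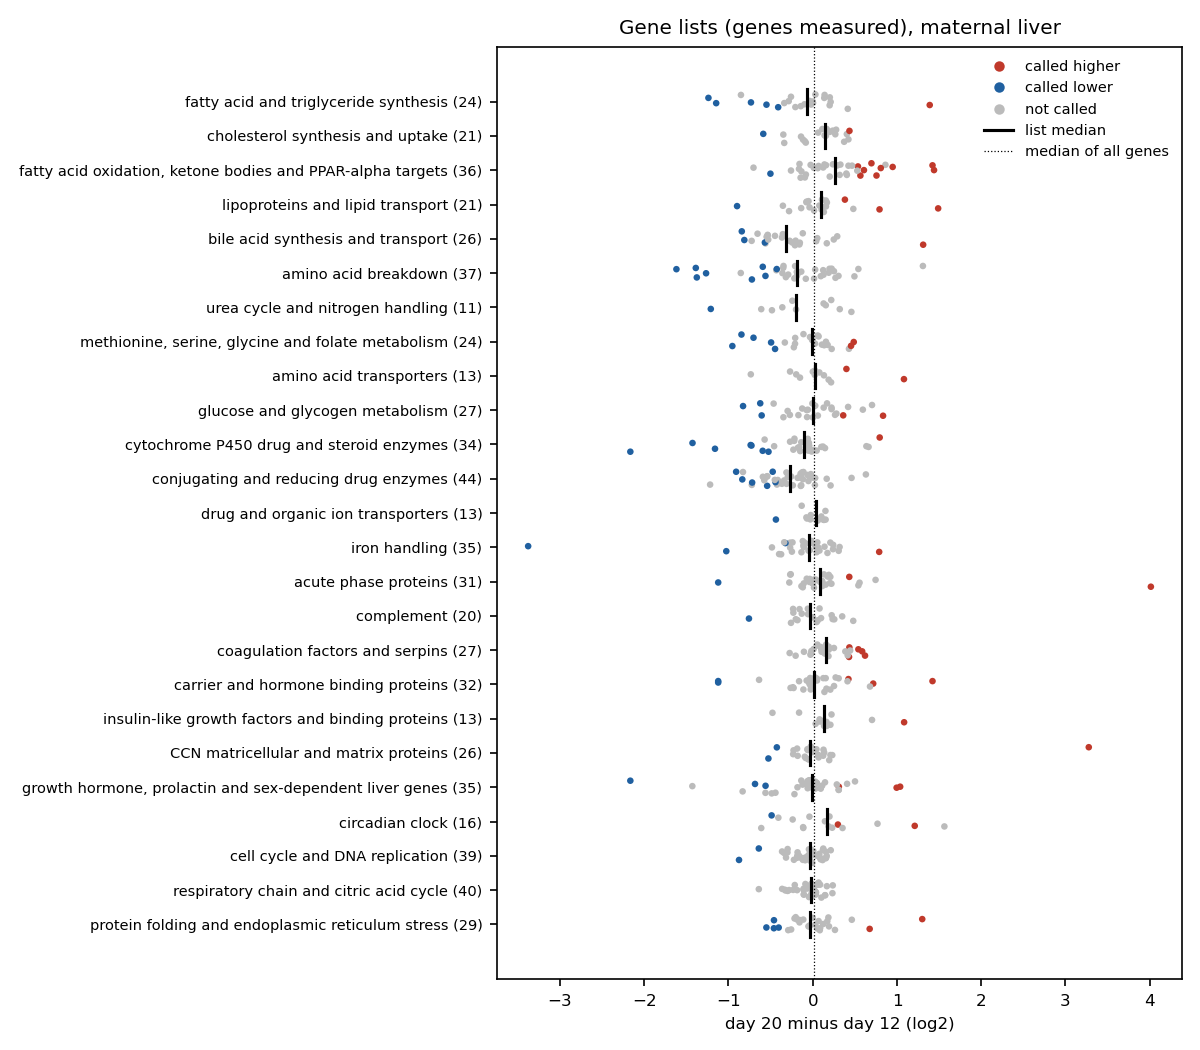
Difference between days (day 20 minus day 12, log2, horizontal axis) of every measured gene of 25 lists (1 row each, number of genes in brackets), with called genes in red or blue, a black bar at the list median and a dotted line at the median of all genes, 0.02. Fatty acid oxidation holds 9 genes called higher, amino acid breakdown 8 called lower, and bile acid genes have the lowest median, -0.31.

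Amino acid breakdown fell in 8 of 37 genes and rose in 0, with a median of -0.19. Of the 37, 23 lay below 0 (4656 of 10411 over all genes) and 14 above. The highest difference in the list, 1.31, was not called. Tat, tyrosine aminotransferase, differed by 0.495 ± 0.125 and was not called by limma (adjusted p 0.0544). Gpt, alanine aminotransferase, fell by 1.62 ± 0.18, 3.07-fold (adjusted p = 0.0034). Gpt stood on day 12 at 10.77 in control, 10.83 with EMD50, 10.62 with EMD150 and 11.43 and 10.78 with retinoic acid, and on day 20 at 9.34, 9.61, 9.11 and 8.97 in that order. The day groups lay 1.01 apart. Prodh, the first enzyme of proline breakdown, fell by 1.39 ± 0.15 (0.0034). Prodh measured 10.79 in control, 10.99 with EMD50, 10.46 with EMD150 and 10.94 and 10.63 with retinoic acid on day 12, and 9.35, 9.88, 9.47 and 8.92 in the same order on day 20. The highest day 20 sample, with EMD50, lay below all of day 12. A weaker probe set of Prodh gave -0.11 ± 0.059 and was not called.

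Tryptophan breakdown through kynurenine fell at a pair of successive enzymes. Kmo, the hydroxylase, fell by 1.27 ± 0.17 (0.00709). Kmo was at 11.47 in control, 11.55 with EMD50, 11.13 with EMD150 and 11.46 and 11.52 with retinoic acid on day 12, and at 9.55, 10.06, 10.50 and 10.40 in the same order of treatments on day 20. The fall was largest in control. Kynu, kynureninase, fell by 1.38 ± 0.26 (0.0229). Kynu levels on day 12 were 12.09 in control, 11.94 with EMD50, 11.71 with EMD150 and 12.03 and 12.06 with retinoic acid, and those on day 20 were 9.77, 10.08, 10.47 and 11.64 in that order. The retinoic acid sample of day 20 lay 0.07 below the lowest of day 12, and the other 3 lay farther below. Aass, of lysine breakdown, fell by 0.72 ± 0.16 (0.0369).

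Otc, ornithine transcarbamylase of the urea cycle, was the 1 gene called of 11 for urea and nitrogen handling, down by 1.21 ± 0.26, 2.31-fold (0.0308). Otc was at 12.32 in control, 12.40 with EMD50, 12.07 with EMD150 and 12.28 and 12.21 with retinoic acid on day 12, and at 10.36, 10.58, 10.90 and 12.02 in the same order of treatments on day 20. With retinoic acid the difference was -0.23, and in control it was -1.96. Leaving that array out, it was -1.65 (adjusted p 0.000687). Oat, ornithine aminotransferase, differed by -0.61 ± 0.16 (0.0584), and the list median was -0.20.

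One-carbon and sulfur amino acid genes fell in 5 of 24 cases and rose in 2. Cth, which makes cysteine, fell by 0.95 ± 0.17 (0.0188). Cth levels on day 12 were 12.81 in control, 12.81 with EMD50, 12.77 with EMD150 and 12.54 and 12.63 with retinoic acid, and those on day 20 were 11.32, 11.91, 11.50 and 12.23 in that order. The retinoic acid sample of day 20 was the least changed. Gnmt (-0.85 ± 0.17) and Sardh (-0.70 ± 0.13), which make and break sarcosine, and the folate enzymes Aldh1l1 (-0.49 ± 0.09) and Mthfd1 (-0.45 ± 0.09) fell. Both enzymes of glutathione synthesis, Gclc (0.49 ± 0.11) and Gss (0.46 ± 0.11), rose. Second probe sets were not called for Gclc (0.29 ± 0.13, adjusted p 0.21) and Sardh (-0.57 ± 0.16, adjusted p 0.0679).

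Of 13 amino acid transporters 2 rose and 0 fell. Slc7a7, an exporter of cationic amino acids, rose by 1.08 ± 0.12 (0.0034). Slc7a7 stood on day 12 at 9.20 in control, 9.10 with EMD50, 9.02 with EMD150 and 9.30 and 9.73 with retinoic acid, and on day 20 at 10.13, 10.51, 10.09 and 10.47 in that order. All samples of day 20 were higher. Slc38a4, an importer of neutral amino acids, rose by 0.40 ± 0.09 (0.0374). Without the day 20 retinoic acid array the counts of genes that rose and fell were 2 and 9 for breakdown, 2 and 3 for the urea cycle, 1 and 5 for one-carbon genes and 1 and 1 for transporters, and Gclc (adjusted p 0.0709) and Slc38a4 (adjusted p 0.0547) were not called. In the same order these were 29.7%, 45.5%, 25% and 15.4% of the lists, against 10.7% of all genes. Of the 15 amino acid genes called above, Gpt, Prodh, Kmo and Slc7a7 were called in each fit that left out 1 array. The other 11 lost the call without a control array, 9 without an EMD50 array, 10 without an EMD150 array, and 3 and 6 without the first and second day 12 retinoic acid array, at adjusted p from 0.0503 to 0.169.

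Among drug metabolising enzymes more fell than rose. Of 34 cytochrome P450 and related genes 7 fell and 1 rose, with a median of -0.11. Cyp3a18, a P450 of the steroid and drug hydroxylating family that is higher in male than female rat liver, fell by 2.16 ± 0.18, 4.48-fold (adjusted p = 0.001). Cyp3a18 measured 8.95 in control, 9.05 with EMD50, 9.74 with EMD150 and 9.72 and 9.30 with retinoic acid on day 12, and 7.09, 7.44, 7.49 and 6.77 in the same order on day 20. The groups lay 1.46 apart. Cyp2a1, a testosterone hydroxylase, fell by 1.43 ± 0.24 (0.0152). Cyp2a1 was at 10.69 in control, 10.99 with EMD50, 10.90 with EMD150 and 10.39 and 10.44 with retinoic acid on day 12, and at 9.0, 8.52, 9.82 and 9.70 in the same order of treatments on day 20. The decrease was largest with EMD50. Cyp2j3 (-1.16 ± 0.25), Cyp2t1 (-0.74 ± 0.13) and Cyp2c22 (-0.73 ± 0.12) fell as well. Cyp17a1, of steroid hormone synthesis, rose by 0.80 ± 0.11 (0.00634) from a low level. Cyp17a1 levels on day 12 were 6.98 in control, 6.67 with EMD50, 6.70 with EMD150 and 6.87 and 6.66 with retinoic acid, and those on day 20 were 8.0, 7.65, 7.57 and 7.19 in that order. The retinoic acid sample of day 20 was the lowest of its day. P450 genes have close relatives, and probe sets can read more than 1 of them.

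Conjugating and reducing enzymes lay below 0 in 38 of 44 genes (4656 of 10411 over all genes), with a median of -0.27, and 6 fell and 0 rose by the test. By treatment the median was -0.40 in control, -0.30 with EMD50, -0.31 with EMD150 and -0.07 with retinoic acid, and without the 3 acinar arrays it was -0.17. Sult1a1, a phenol sulfotransferase, fell by 0.91 ± 0.16 (0.0186). Sult1a1 was at 13.06 in control, 12.96 with EMD50, 12.61 with EMD150 and 13.22 and 12.88 with retinoic acid on day 12, and at 11.65, 11.79, 12.26 and 12.30 in the same order of treatments on day 20. The groups lay 0.32 apart. Akr7a3, an aflatoxin aldehyde reductase, fell by 0.84 ± 0.12 (0.00962). Akr7a3 levels on day 12 were 9.73 in control, 9.71 with EMD50, 10.11 with EMD150 and 9.83 and 9.63 with retinoic acid, and those on day 20 were 8.84, 9.12, 8.80 and 9.10 in that order. All 4 treatments showed the decrease. Aox1, aldehyde oxidase (-0.72 ± 0.09), Gstm4, a glutathione transferase (-0.54 ± 0.13), and Nqo1, a quinone reductase (-0.47 ± 0.09), fell by less than 1 unit. Of 13 drug and organic ion transporters Abcc6 fell (-0.44 ± 0.10) and none rose, 7.69% against 6.31% of all genes. Slc22a5, a carnitine carrier, had the next smallest p (0.15 ± 0.07, 0.255).

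In the repeat without the day 20 retinoic acid array the counts that rose and fell were 4 and 8 for P450 genes, 1 and 19 for conjugating enzymes and 0 and 1 for transporters, and Cyp2j3 was not called (adjusted p 0.0554). In the same order these were 35.3%, 45.5% and 7.69% of the lists, against 10.7% of all genes. Of the 12 called genes named for these lists, Cyp3a18, Cyp2c22, Cyp17a1 and Aox1 were called in each fit that left out 1 array. The other 8 lost the call without a control array, 3 without an EMD50 array, 5 without an EMD150 array, and 1 and 2 without the first and second day 12 retinoic acid array, at adjusted p from 0.0538 to 0.175.

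Genes that respond to growth hormone, prolactin or sex hormones changed in 6 of 35 cases, 3 each way, with a median of -0.01. Cish, an inhibitor of cytokine signalling that STAT5 induces, rose by 1.0 ± 0.20 (adjusted p = 0.024). Cish stood on day 12 at 8.99 in control, 7.92 with EMD50, 7.55 with EMD150 and 8.65 and 8.77 with retinoic acid, and on day 20 at 9.53, 9.49, 9.13 and 9.18 in that order. Day 12 samples spread over 1.44, and all 4 of day 20 lay above them. Ghr, the growth hormone receptor, rose by 1.04 ± 0.14 (0.00619). Ghr measured 11.31 in control, 11.27 with EMD50, 11.09 with EMD150 and 11.29 and 11.44 with retinoic acid on day 12, and 11.92, 12.15, 12.16 and 12.82 in the same order on day 20. A second probe set of Ghr gave 0.06 ± 0.092 (adjusted p 0.745), so the rise holds for 1 of its 2 probe sets. Esr1, the estrogen receptor, rose by 0.31 ± 0.07 (0.0432). Rgn, a calcium binding protein also known as regucalcin (-0.68 ± 0.11), the glucocorticoid receptor gene Nr3c1 (-0.56 ± 0.11) and Cyp3a18 fell. A dimmer probe set of Nr3c1 gave -0.03 ± 0.054 (adjusted p 0.795). The repeat without the day 20 retinoic acid array had 3 that rose and 7 that fell, 28.6% against 10.7% of all genes. Of the 5 genes other than Cyp3a18, Ghr was called in each fit that left out 1 array. The calls of 3 were lost without a control, an EMD50 or an EMD150 array, and of 1 and 2 without the first and second day 12 retinoic acid array, at adjusted p from 0.0558 to 0.185.

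In glucose and glycogen metabolism 2 of 27 genes rose and 3 fell, with a median of 0.00. Pck1 (0.83 ± 0.14) and Fbp1 (0.36 ± 0.08), key enzymes of glucose synthesis, rose. Pck1 was at 12.72 in control, 12.27 with EMD50, 12.41 with EMD150 and 13.17 and 12.70 with retinoic acid on day 12, and at 13.52, 13.52, 13.30 and 13.45 in the same order of treatments on day 20. Day 20 samples were all higher. Gckr, the regulator of glucokinase (-0.83 ± 0.14), Gbe1, the glycogen branching enzyme (-0.62 ± 0.10), and Pgk1 of glycolysis (-0.61 ± 0.11) fell. Of 3 Pgk1 probe sets the dimmest gave 0.02 ± 0.029 and was not called.

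Among 29 protein folding genes 2 rose and 4 fell. Herpud1, of protein disposal at the endoplasmic reticulum, rose by 1.30 ± 0.22 (0.0155), and Xbp1, a transcription factor of the secretory pathway, by 0.68 ± 0.09 (0.00622). Herpud1 levels on day 12 were 9.64 in control, 9.55 with EMD50, 9.62 with EMD150 and 10.48 and 9.51 with retinoic acid, and those on day 20 were 11.37, 11.23, 10.75 and 10.82 in that order. The first retinoic acid sample of day 12 was the highest of its day. The 4 that fell were the heat shock genes Hsph1 (-0.55 ± 0.12), Hspe1 (-0.46 ± 0.11), Hspd1 (-0.46 ± 0.09) and Hspb1 (-0.40 ± 0.10), chaperones of cytosol and mitochondria.

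Of 39 cell cycle genes Cks2, a cyclin-dependent kinase subunit (-0.87 ± 0.10), and Prim1, a DNA primase (-0.64 ± 0.12), fell and none rose. These were 5.13% of the list, under the 6.31% of all genes, and the median was -0.03. Cks2 was at 8.46 in control, 8.40 with EMD50, 8.64 with EMD150 and 8.60 and 8.60 with retinoic acid on day 12, and at 7.25, 7.79, 7.64 and 7.87 in the same order of treatments on day 20. The fall of Cks2 was seen in each treatment. None of 40 respiratory chain and citric acid cycle genes was called by limma. An unadjusted p under 0.05 was found for 8 of the 40, against 2480 of all 10411 genes. Without the day 20 retinoic acid array 3 fell, 7.5% of the list against 10.7% of all genes. The smallest p in that list belonged to Suclg2 (-0.32 ± 0.08, 0.0602) and Ndufs1 (-0.64 ± 0.18, 0.0769).

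Clock genes were called in 3 of 16 cases. Nr1d2, a repressor that oscillates over the day, rose by 1.21 ± 0.28 (0.0429). Nr1d2 levels on day 12 were 6.96 in control, 7.16 with EMD50, 6.64 with EMD150 and 8.33 and 6.70 with retinoic acid, and those on day 20 were 8.26, 8.56, 8.06 and 8.36 in that order. The first retinoic acid sample of day 12 lay at the day 20 level, apart from the 4 others of its day. The 2 other probe sets of Nr1d2 rose by 1.43 ± 0.27 and 0.51 ± 0.12. Per3 (0.30 ± 0.07) rose and Clock (-0.49 ± 0.08) fell, and of the 2 other probe sets of Clock 1 fell (-0.67 ± 0.15) and 1 was not called (-0.05 ± 0.056, adjusted p 0.614). The hour of collection is not given, so hour and day cannot be told apart for these genes.

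Without the day 20 retinoic acid array the counts of genes that rose and fell were 4 and 3 for glucose, 2 and 2 for folding, 0 and 4 for the cell cycle and 4 and 2 for the clock, and Hsph1 (adjusted p 0.0543) and Hspb1 (adjusted p 0.107) were not called. In the same order these were 25.9%, 13.8%, 10.3% and 37.5% of the lists, against 10.7% of all genes. Of the 16 genes called in these 4 lists and named here, Xbp1 and Cks2 were called in each fit that left out 1 array. The other 14 lost the call without a control array, 9 without an EMD50 array, 13 without an EMD150 array, and 4 and 5 without the first and second day 12 retinoic acid array, at adjusted p from 0.0501 to 0.193.

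Several of the largest differences lay outside these pathways. Nrep, a neuronal regeneration related protein, fell by 1.74 ± 0.19 (adjusted p = 0.0034). Nrep stood on day 12 at 9.23 in control, 9.42 with EMD50, 8.19 with EMD150 and 8.82 and 8.79 with retinoic acid, and on day 20 at 6.62, 7.63, 6.58 and 7.65 in that order. The EMD150 sample was the lowest of day 12 and still 0.54 above day 20. Xpnpep2, a membrane aminopeptidase, fell by 1.60 ± 0.16 (0.00224), and the asparaginase gene Aspg fell by 1.34 ± 0.15 (0.0034). Slc34a2, a phosphate transporter, fell by 1.29 ± 0.14 (0.0034). Slc34a2 measured 8.39 in control, 8.57 with EMD50, 8.51 with EMD150 and 8.11 and 7.76 with retinoic acid on day 12, and 6.93, 7.05, 6.95 and 7.16 in the same order on day 20. Day 20 samples lay within 0.23 of each other. Mest, an imprinted gene, fell by 1.27 ± 0.12 (0.00211). Mest was at 8.74 in control, 8.55 with EMD50, 8.52 with EMD150 and 9.81 and 9.38 with retinoic acid on day 12, and at 7.20, 7.39, 7.04 and 8.58 in the same order of treatments on day 20. Retinoic acid samples were the highest on both days, and the one of day 20 overlapped with day 12. Pnkd fell by 1.29 ± 0.15 (0.0034), but its second probe set gave 0.17 ± 0.14 (adjusted p 0.506). Tubb2a, a beta tubulin, fell by 1.56 ± 0.30 (0.0225). Tubb2a levels on day 12 were 11.84 in control, 11.90 with EMD50, 11.92 with EMD150 and 12.04 and 12.17 with retinoic acid, and those on day 20 were 9.65, 10.18, 9.54 and 11.76 in that order. The retinoic acid sample of day 20 lay near the day 12 level, and without it the difference was -2.10.

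Cpa1, a pancreatic carboxypeptidase, rose by 1.96 ± 0.15, 3.89-fold (0.000973). Cpa1 was at 10.66 in control, 10.49 with EMD50, 10.20 with EMD150 and 10.39 and 10.79 with retinoic acid on day 12, and at 12.21, 12.60, 11.88 and 12.95 in the same order of treatments on day 20. The 3 arrays high in the other acinar genes were not the 3 highest in Cpa1, which was higher on all 4 arrays of day 20 than on any of day 12. Slc25a30, a mitochondrial carrier, rose by 1.73 ± 0.15, 3.32-fold (0.00105). Slc25a30 levels on day 12 were 9.07 in control, 8.70 with EMD50, 8.42 with EMD150 and 9.28 and 9.09 with retinoic acid, and those on day 20 were 10.65, 11.06, 10.17 and 10.55 in that order. Each day 20 sample was higher than day 12. Mustn1, a gene of the musculoskeletal system, rose by 2.22 ± 0.39 (0.0166). Mustn1 stood on day 12 at 6.88 in control, 6.93 with EMD50, 6.84 with EMD150 and 6.63 and 6.87 with retinoic acid, and on day 20 at 9.08, 7.88, 8.28 and 10.53 in that order. The retinoic acid sample, which carries muscle genes, was the highest, and without it the difference was 1.53 (adjusted p 0.00233). Enpp2, which makes the signalling lipid lysophosphatidic acid (1.47 ± 0.16), Krt10, a keratin (1.58 ± 0.21), Tp53i11 (1.48 ± 0.20), Egr1, an immediate early transcription factor (1.38 ± 0.18), and Cyb561, a cytochrome b (1.31 ± 0.14), also rose, each with its highest level in the day 20 retinoic acid sample. Their differences without it were 1.21, 1.27, 1.12, 1.14 and 1.10, all called. Of these 15 genes, 13 were called in each fit that left out 1 array. Mustn1 and Tubb2a were not called without a control array, and 1 of them without an EMD50 or an EMD150 array, at adjusted p from 0.0756 to 0.106.

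**Figure D5:**
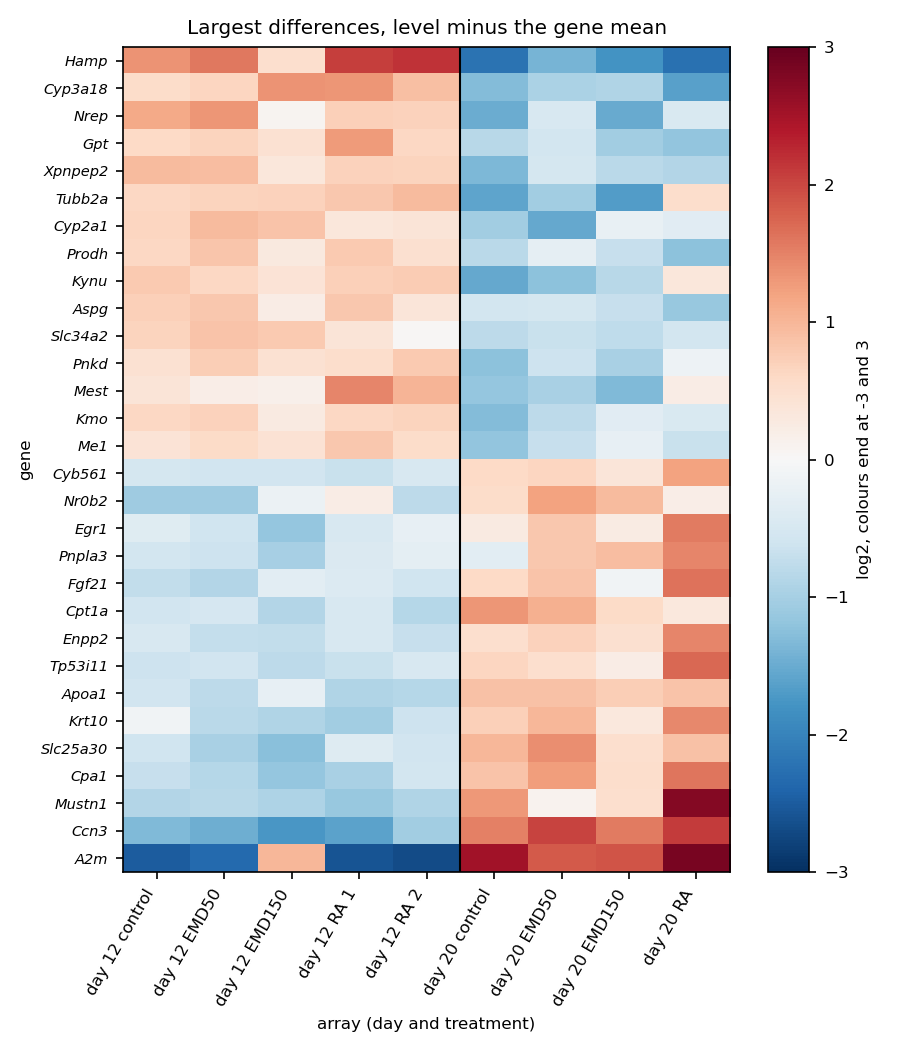
Level of the 15 genes with the largest falls and the 15 with the largest rises (rows) on each array (columns, day and treatment), as the log2 level minus the mean of the gene over the 9 arrays. Day 12 arrays stand left of the line and day 20 arrays right of it; 7 squares lie on the other side of the gene mean than the rest of their day: A2m on the day 12 EMD150, Nr0b2 on the first day 12 retinoic acid, Pnpla3 on the day 20 control, Fgf21 on the day 20 EMD150, and Kynu, Mest and Tubb2a on the day 20 retinoic acid array.

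Whether treatment altered the difference between days was tested with interaction terms. The day difference with retinoic acid departed from that of the other treatments in 132 probe sets, 120 more positive and 12 more negative, with 1855 at an unadjusted p under 0.05. By gene these were 87, 0.836% of those measured, 80 more positive and 7 more negative, and 6 of them were also called between days. Only 1 day 20 retinoic acid array enters this test, and it is the one with muscle genes: 21 of the 30 muscle markers were among the calls. Acta1, skeletal muscle actin, was 12.83 on that array and 6.32 to 7.41 on the others, an interaction of 6.49 ± 0.36. Myl1 (5.17 ± 0.11), Ckm (3.98 ± 0.17) and Myl11 (3.77 ± 0.17), of the contractile apparatus and its energy supply, showed the same picture. Myh1, a fast myosin heavy chain, did not: the symbol has 5 probe sets, and the one used lay between 11.34 and 12.09 on all 9 arrays. Rnase1l2, a ribonuclease, had an interaction of 3.96 ± 0.71, with 9.67 on the day 20 retinoic acid array but also 9.91 on the day 12 control array.

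On the negative side, Cyp26a1, the enzyme that degrades retinoic acid and that retinoic acid induces, had the largest interaction, -4.56 ± 0.62 (adjusted p = 0.0157). Cyp26a1 measured 7.29 in control, 7.58 with EMD50, 7.23 with EMD150 and 10.05 and 11.62 with retinoic acid on day 12, and 8.17, 9.43, 8.49 and 7.60 in the same order on day 20. Both retinoic acid samples of day 12 were the highest of all, and on day 20 the retinoic acid sample was the lowest of its day. In the other treatments Cyp26a1 was higher on day 20, and without the day 20 retinoic acid array its difference was 1.33 (adjusted p 0.043). Mt2A, a metallothionein that binds zinc, had an interaction of -2.89 ± 0.38 (0.0131). Mt2A was at 10.86 in control, 11.16 with EMD50, 10.75 with EMD150 and 12.21 and 12.11 with retinoic acid on day 12, and at 12.26, 11.54, 10.85 and 9.89 in the same order of treatments on day 20. Here, too, the retinoic acid samples were the highest on day 12 and the lowest on day 20. The clock gene Per2 (-1.59 ± 0.27), Cobll1 (-1.34 ± 0.24) and the peroxisomal transporter gene Abcd3 (-1.27 ± 0.16) completed the 5 named. For Per2 the retinoic acid sample of day 20, at 7.56, lay below every other sample, which ran from 8.41 to 9.64. The count of 132 was 50 without a control array, 304 without an EMD150 array, and 42 and 72 without the first and second day 12 retinoic acid array. For EMD 82571, both doses together against the other samples, limma called 0 probe sets, with 685 at an unadjusted p under 0.05, and a difference in the day effect was not detectable with these arrays.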

How the data were processed

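RNA was measured on 1 single-colour expression array per sample. The log2 values used are those the authors deposited, made with the RMA method (robust multi-array averaging); the source is the submitters' processing notes, which give no version. The labels' protocols name RNeasy extraction, an oligo dT primer with T7 promoter and biotin-labelled cRNA. The table held 15923 rows, and 57 array controls were left out. Gene symbols came from the platform's probe table (12783 probe sets with 1 symbol, 312 with several, 2771 with none). They were compared with a RefSeq gene table on GRCr8 where the identifier was found (12748), and 0 symbols changed. Of 784 gene names in 25 lists 649 were measured, and the others were not analysed here.

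Tests were two-sided, from limma 3.58.1 in R 4.3.3 (lmFit and eBayes with an intensity trend), on the 9 maternal liver arrays with treatment as a block, with no filter. Interaction terms compared day effects between treatments, with 3 residual degrees of freedom. The scripts were tested on simulated data. Members, lists and repeats were chosen with earlier results of these data known. Named genes are up to 15 per direction with the largest difference among called genes of equal sign in all treatments, up to 5 called per list and direction (with fewer than 2 called, the 2 of smallest p), Hamp, A2m, Ccn3, label checks, and up to 5 per direction of the interaction. Ahsp, Lrat, Epcam, Klrb1a and Ucp1 were named after their values were seen. Alternatives were the repeats without arrays, no block, quantile normalization, centring on the median, a filter on low levels, no intensity trend, the spread of all 22 arrays and probe set means per gene.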

Additional observations from a re-analysis of the deposited data

Results flagged for a closer look

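Of 246 groups of arrays (123 genes on 2 days), 18 had 1 array far from the others of its day. Chance gives about 1 in 20 for genes not picked by their values. These genes were in part picked by their values, and the muscle and interaction genes through the day 20 retinoic acid array. The 18 therefore cannot be set against that rate. The day 20 retinoic acid array stood apart in 6. It was high for the muscle genes Acta1 (12.83, the others of day 20 at 6.48 to 6.85), Ckm (11.30 against 7.23 to 7.45), Myl1 (10.89 against 5.75 to 5.92) and Myl11 (11.14 against 7.10 to 7.64), and low for Per2 (7.56 against 9.42 to 9.64) and Hsd3b7 (9.63 against 10.07 to 10.16). The day 12 EMD150 array stood apart in 4: high for A2m (11.21 against 7.54 to 7.89) and Cyp2c22 (13.55 against 13.14 to 13.21), and low for Kmo (11.13 against 11.46 to 11.55) and Gckr (10.74 against 10.95 to 11.02). The first day 12 retinoic acid array was high for Gpt (11.43 against 10.62 to 10.83), Herpud1 (10.48 against 9.51 to 9.64) and Igfbp2 (10.50 against 10.05 to 10.14), and the second for Vkorc1 (13.17 against 12.99 to 13.03). The day 12 control array was high for Acta1 (7.41 against 6.32 to 6.45) and the day 20 control array for Igfbp2 (11.87 against 11.02 to 11.13). The day 20 EMD50 array was high for Mlxipl (9.41 against 9.13 to 9.17), and the day 20 EMD150 array was low for Apoa1 (14.32 against 14.44 to 14.46).

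Of all 10411 genes, limma called 87 (0.836%) for the interaction of day with retinoic acid. Up to 5 per direction were named because of that call, so the count among named genes cannot be set against that share. The day difference with retinoic acid departed from that without it, by limma's interaction term, in 13 of the named genes. It was more positive for Acta1 (6.49), Myl1 (5.17), Ckm (3.98), Rnase1l2 (3.96), Myl11 (3.77), Mustn1 (2.24), Tubb2a (1.75) and Tp53i11 (1.18). It was more negative for Cyp26a1 (-4.56), Mt2A (-2.89), Per2 (-1.59), Cobll1 (-1.34) and Abcd3 (-1.27). A single array of day 20 stands behind each of these values.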

How the results depend on the processing

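The 965 calls between days became 1650 without the day 20 retinoic acid array and 89 without the 3 arrays high in acinar genes, the latter chosen after seeing the data. Leaving out 1 array gave 183 to 1650. The interaction with retinoic acid had 42 to 304 calls with 1 array left out (132 with all), and could not be fitted without the day 20 retinoic acid array. The interaction with EMD 82571 had 0 calls with all arrays and 0 to 2 with an EMD 82571 or retinoic acid array left out. Without a control array it had 50. That fit sets EMD 82571 against retinoic acid alone, so it is the interaction with retinoic acid with its sign turned. The counts without all retinoic acid arrays (1206), without the block (1092), with quantile normalization (1070), with median centring (873), without the trend (886) and with the spread of all 22 arrays (710) stayed within 1.5 times the main count. The filter left 7933 probe sets, with 903 called, and averaging probe sets by gene gave 659 genes called, against 657 with 1 probe set a gene. Cyp26a1, not called with all arrays (-0.08), was higher on day 20 by 1.33 without the day 20 retinoic acid array or without all retinoic acid arrays, and Per2 (-0.04) by 0.45 without the latter; with 1 array left out Cyp26a1 ran from -0.65 to 1.33. Of 105 named genes called between days none changed sign under the alternatives other than the filter, which was not run by gene. Of the 105, 23 were called under each of these alternatives and 40 in all 9 fits that left out 1 array. With the spread of all 22 arrays 24 lost the call, among them Apoa1, Apom, Serpina6 and Aox1. Without the 3 arrays high in acinar genes 78 lost the call, and the cause was not tested beyond the fewer arrays fitted. Array number limits all of these results: a treatment has 1 array on day 20.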
